A study of Mus musculus with 24 samples.

Results

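The SOX proteins are transcription factors that bind DNA through a shared domain, the high mobility group (HMG) box. The 10 genes described here were listed by name: 5 stem cell types (Sox1, Sox2, Sox3, Sox9 and Sox21), 3 neuronal types (Sox4, Sox11 and Sox12) and 2 genes of the SOXD group (Sox5 and Sox6), out of 23306 genes in the table. All 10 were found in it, none was listed at 0 in any library, and all 10 passed the filter on low values in each fit. They were measured in the dentate gyrus, where new neurons are added to the adult hippocampus, of female C57BL6 mice that carried Tg(Nes-cre/ERT2) and 1 tagged allele of a ribosomal protein gene (RPL22HA/WT). Tamoxifen, given daily for 5 days at 160 mg per kg to mice of 9 to 11 weeks, switches the Cre on, and the ribosomes of recombined cells gain a haemagglutinin tag. RNA that came down with the tagged ribosomes (the precipitate, IP) filled 12 libraries, and RNA of the whole dentate gyrus (input) filled 12. Running mice could use a wheel for 11, 18 or 27 days and sedentary mice lived with the same wheel glued in place, with 2 libraries for each of the 12 combinations of fraction, activity and day. All animals, the sedentary ones included, carried both alleles and received tamoxifen. The Cre is driven by the Nestin promoter, active in neural stem cells. The tag therefore marks stem cells, any other cell with the Cre active at the time of tamoxifen, and all their descendants, whereas the labels call the IP libraries immature neurons. Markers of both stages were present: the summed level of 8 neural stem cell markers was 572 to 1113 TPM in the IP, against 287 to 449.9 TPM in the input, and that of 6 immature neuron markers was on average 2124 TPM in the IP, against 788 TPM in the input. TPM is a transcript's share of its library's total, corrected for transcript length. Whether the 2 libraries of a group stem from different animals is not stated, so p-values measure the spread between these libraries, which may be technical.

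SOX1, SOX2 and SOX3 form the SOXB1 group, which keeps neural progenitors undifferentiated, and SOX2 is required in the stem cells of the adult dentate gyrus. SOX21 belongs to the SOXB2 group, which represses targets of SOXB1 in the embryonic spinal cord of the chick, and SOX9, of the SOXE group, acts in neural stem cells and in astrocytes. SOX4, SOX11 and SOX12 form the SOXC group, which activates neuronal genes such as Dcx and Tubb3 as progenitors leave the stem cell state. SOX5 and SOX6 have no transactivation domain of their own and work through partner proteins.

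The SOX groups can be read only in part in the coding sequence of the HMG box. In the stretch below, Sox21 differs from Sox2 at as many bases as Sox1 does, and Sox9 at more than Sox4. The box is shown because it is what defines the family and because similar sequence is where reads of 2 members could be confused. The lines give 60 bases, 5′ to 3′ on the coding strand, starting at the same codon of each gene (GENCODE M21 transcripts), with capitals where the base differs from Sox2.
Sox2: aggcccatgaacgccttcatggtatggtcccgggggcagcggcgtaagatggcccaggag
Sox1: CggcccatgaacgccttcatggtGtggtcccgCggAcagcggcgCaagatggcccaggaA
Sox3: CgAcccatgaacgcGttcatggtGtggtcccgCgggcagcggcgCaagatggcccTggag
Sox21: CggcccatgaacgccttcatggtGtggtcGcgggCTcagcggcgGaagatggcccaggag
Sox9: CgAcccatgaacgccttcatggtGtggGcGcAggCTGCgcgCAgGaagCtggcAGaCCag
Sox4: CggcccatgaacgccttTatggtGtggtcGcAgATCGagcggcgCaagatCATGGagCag
Sox11: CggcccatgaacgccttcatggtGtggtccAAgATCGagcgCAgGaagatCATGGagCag
Sox12: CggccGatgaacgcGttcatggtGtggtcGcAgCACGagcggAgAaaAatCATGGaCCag
Sox5: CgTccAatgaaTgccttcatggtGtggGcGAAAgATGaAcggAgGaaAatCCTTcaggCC
Sox6: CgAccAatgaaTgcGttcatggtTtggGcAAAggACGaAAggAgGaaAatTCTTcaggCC
In this stretch Sox1 and Sox21 differed from Sox2 at 6 bases each and Sox3 at 7. Sox9 differed at 18 bases, Sox4 at 16, Sox11 at 17, Sox12 at 20, Sox5 at 23 and Sox6 at 24. Over 237 bases of the box, the 3 pairs of neuronal types shared 83.5 to 89.0% of their bases, and the 15 pairs of a stem cell type with a neuronal type shared 66.7 to 73.4%. The 10 pairs of stem cell types shared 69.2 to 89.9%. Over whole transcripts the longest identical stretch between any 2 of the 10 genes was 48 bases, between Sox4 and Sox11, followed by 45 bases between Sox1 and Sox3. Reads that fall in such stretches can be split between genes by the authors' counting.

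Of the 10 genes, 6 have no intron in the GENCODE M21 annotation of GRCm38 (the mm10 build), so that their reads cannot be told from genomic DNA by splicing. Sox2 lies on the plus strand of chromosome 3 from 34650405 to 34652461, inside the noncoding gene Sox2ot on the same strand. Sox1 lies on chromosome 8 (plus strand, 12395295 to 12400126), Sox3 on chromosome X (minus strand, 60891366 to 60893430) and Sox21 on chromosome 14 (minus strand, 118233232 to 118237030). Sox4 lies on chromosome 13 (minus strand, 28948919 to 28953713) and Sox11 on chromosome 12 (minus strand, 27334264 to 27342574). Sox12 on chromosome 2 (minus strand, 152393611 to 152398063) has transcripts of 1 or 2 exons and Sox9 on chromosome 11 (plus strand, 112782224 to 112787760) has 3 exons. Sox5 on chromosome 6 (minus strand, 143828425 to 144781977) has up to 15 exons and Sox6 on chromosome 7 (minus strand, 115470872 to 116038796) up to 17. Sox2ot had 23.8 ± 4.23 TPM in the IP, against 19.8 ± 4.44 TPM in the input (SD, n = 12 libraries each). Only the spans of the genes were compared, so whether an exon of Sox2ot covers Sox2 was not checked. Reads of any exon sequence that both share cannot be told apart.

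No read depth can be given, since TPM keeps none. The IP running library a of day 11 stood apart, with 17.4% of its TPM in the ribonuclease P RNA Rpph1. The other 11 IP libraries had 4.58 to 9.16%. For Sox3, Sox4 and Sox11, results whose call or sign changed without this library are also given without it. Genes of olfactory receptors, which serve here as a measure of background, averaged 1.71 to 4.99 TPM in the IP. In the input they averaged 7.998 to 16.4 TPM at day 18, against 1.06 to 5.54 TPM at days 11 and 27.

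In the IP the 2 most abundant members were the neuronal types Sox4 and Sox11, whereas in the input the 2 most abundant were the stem cell types Sox9 and Sox2. Of the 10 genes, 9 were higher in the IP than in the input, and Sox21 was not called. The difference was largest for Sox4, at 3.15 ± 0.11 on the log2(TPM + 1) scale (SE), and that of Sox11 was 2.30 ± 0.11. Across all 19507 genes tested, 69.9% were called, 41.4% as higher and 28.5% as lower in the IP, so a call alone is common here and the size of the difference carries the comparison. The median of all genes was 0.12, and that of the 10 members was 1.11. All these calls come from limma with Benjamini-Hochberg adjustment at 0.05, and all log2 differences below are of log2(TPM + 1), where changes of genes at low levels appear too small.

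Sox4, a SOXC factor of newborn neurons, ranged from 101 to 268 TPM over the 12 IP libraries with a median of 153 TPM, against 11.7 to 27.4 TPM with a median of 16.03 TPM in the input. Every IP library lay far above every input library, and the mean was 9.52 times as high in the IP. Sox11, its close relative with which it acts in neuronal differentiation, ranged from 96.8 to 222 TPM with a median of 135 TPM in the IP, against 19.5 to 35.0 TPM with a median of 27.5 TPM in the input. Its groups did not overlap either, with a ratio of means of 5.20. Sox12, the weakest activator of the SOXC group, ranged from 25.3 to 54.8 TPM with a median of 46.2 TPM in the IP, against 16.5 to 25.5 TPM with a median of 21.1 TPM in the input. Only the IP running library a of day 11 fell inside the input's range, and the log2 difference was 1.04 ± 0.07 (adjusted p = 1.96e-10). Sox4 and Sox11 had adjusted p-values of 2.94e-14 and 2.12e-12.

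Among the stem cell types, Sox1 and Sox3 differed the most between the fractions. Sox1 ranged from 29.3 to 64.9 TPM with a median of 47.9 TPM in the IP, against 8.46 to 16.4 TPM with a median of 11.1 TPM in the input, without overlap (log2 difference 1.97 ± 0.09, adjusted p = 6.78e-13, ratio of means 4.24). Sox3 was the lowest member in the input, at 0.58 to 3.29 TPM, and had 4.09 to 9.36 TPM in the IP (log2 difference 1.85 ± 0.14). Its ratio of means was 5.43, above those of Sox1 and Sox11. Sox2, the classical stem cell factor, ranged from 42.7 to 75.1 TPM with a median of 56.5 TPM in the IP, against 18.97 to 41.2 TPM with a median of 31.3 TPM in the input. Its groups did not overlap, but the lowest IP library lay only just above the highest input library, and the log2 difference was 0.85 ± 0.10 (adjusted p = 2.15e-07). Sox9 ranged from 61.1 to 137 TPM with a median of 94.8 TPM in the IP, against 30.4 to 49.6 TPM with a median of 41.4 TPM in the input. No library of one group entered the range of the other, and its log2 difference was 1.18 ± 0.09 (adjusted p = 9.23e-10). Sox21 stood at 4.83 to 9.52 TPM in the IP, against 4.39 to 8.42 TPM in the input, and the ranges overlapped almost entirely. Its log2 difference was 0.01 ± 0.10 (adjusted p = 0.912), and with TPM rescaled by median-of-ratios size factors it was called lower in the IP, at -0.23 (adjusted p = 0.0296). The same rescaling moved the median of all genes to -0.12 and the calls to 5428 higher and 8131 lower, against 8077 higher and 5554 lower as deposited.

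Both SOXD genes were higher in the IP. Sox5, known in the cortex for deep-layer projection neurons, ranged from 11.7 to 24.4 TPM with a median of 20.6 TPM in the IP, against 8.26 to 14.1 TPM with a median of 9.79 TPM in the input. Its groups overlapped, and the log2 difference was 0.90 ± 0.08 (adjusted p = 6.12e-09). Sox6, known in the cortex for interneurons, had 11.4 to 22.3 TPM in the IP, against 7.84 to 10.8 TPM in the input without overlap (log2 difference 0.80 ± 0.08, adjusted p = 6.76e-08). In all, 7 of the 10 members had every IP library above every input library, which held for 10.1% of all genes tested. In tissue RNA, fewer cells of a type and less RNA per cell cannot be told apart, and this holds for every comparison here.

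**Figure D1:**
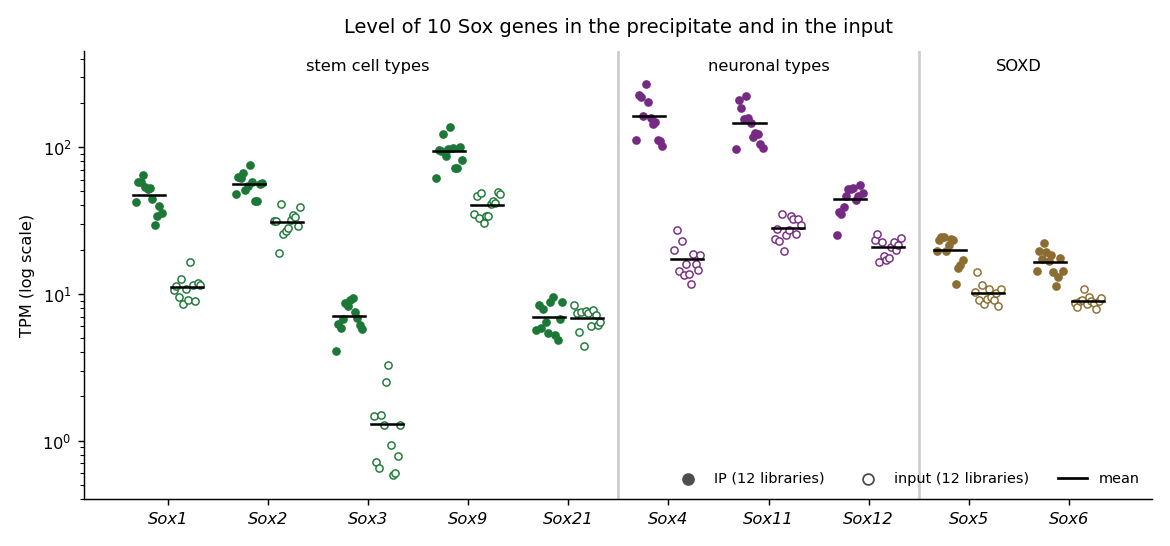
TPM (log scale) of the 10 Sox genes, with filled points for the 12 IP libraries, open points for the 12 input libraries and lines for the means. Sox4 and Sox11 stand highest in the IP at means of 164 and 145 TPM, and Sox21 is the gene whose 2 clouds lie on top of each other at means of 6.96 and 6.82 TPM.

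Ordered by mean level in the IP, the members ran Sox4, Sox11, Sox9, Sox2, Sox1, Sox12, Sox5, Sox6, Sox3 and Sox21. Neighbours in this order whose ranges over libraries did not overlap were Sox12 and Sox5, and Sox6 and Sox3. Sox4 exceeded Sox11 in 11 of 12 IP libraries, Sox11 exceeded Sox9 in 12, and Sox1 exceeded Sox12 in only 6. In the input the order was Sox9, Sox2, Sox11, Sox12, Sox4, Sox1, Sox5, Sox6, Sox21 and Sox3, and Sox9 exceeded Sox2 in 12 of 12 libraries. Sox4 thus stood first in the IP but below 4 other members in the input, where Sox11 exceeded it in every library at a ratio of Sox4 to Sox11 of 0.345 to 0.987. The ratio was 0.915 to 1.29 in the IP. The neuronal types made up 52.3 to 68.6% of the summed TPM of the 10 genes in the IP, against 35.9 to 40.4% in the input.

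Of the 9 other Sox genes tested, Sox8 and Sox13 were higher in the IP, Sox10 was lower, and Sox7, Sox14, Sox15, Sox17, Sox18 and Sox30 were not called. Sox8, of the same group as Sox9, averaged 62.2 ± 8.43 TPM in the IP, against 35.8 ± 6.81 TPM in the input, while Sox10, a factor of the oligodendrocyte lineage, averaged 9.39 ± 1.58 TPM in the IP, against 15.3 ± 1.75 TPM in the input. Sox13, the third SOXD gene, averaged 10.1 ± 1.99 TPM in the IP, against 3.76 ± 0.711 TPM in the input (SD, n = 12 libraries each for all 3).

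Genes that work with the members were described by 4 lists. Of 14 genes of the SOXB1 and stem cell network, 13 were higher in the IP and 0 lower (median log2 difference 0.98), and those of lowest p were Vim (2.10), Notch1 (2.32), Nes (1.46) and Hopx (1.36). Vim and Nes encode filament proteins of stem cells, Notch1 a receptor that maintains them, and Hopx a cofactor found in the quiescent ones. Of 14 genes of the SOXC and neuronal network, 10 were higher and 2 lower (median 1.35). Those named were Dpysl3, of growing axons, at 3.19, the microtubule protein gene Dcx at 2.86, Igfbpl1 at 4.70 and the proneural factor gene Neurog2 at 2.30. The SOX9 and glial network had 6 of 10 higher and 3 lower (median 0.52), with the glutamate transporter gene Slc1a3 at 1.45 and the gliogenic factor gene Nfia at 1.31 on one side. The water channel gene Aqp4 at -1.03 and S100b at -1.74, both of mature astrocytes, stood on the other. The SOXD network had 3 of 8 higher and 3 lower (median 0.11). Of marker lists, all 8 neural stem cell, all 5 intermediate progenitor and all 6 immature neuron genes were higher in the IP. Lower in the IP were 3 of 6 astrocyte, 5 of 6 oligodendrocyte precursor, 6 of 6 interneuron and 6 of 6 microglia genes. The astrocyte list summed to 1687 to 3089 TPM in the IP against 1730 to 2545 TPM in the input, with none of its genes at 0, and its part in the levels of Sox2, Sox9 and Sox21 was not tested.

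The gap between IP and input was called as changing between days for Sox12, Sox4 and Sox9 (F test over the 3 days in limma, adjusted p = 0.00572, 0.0253 and 0.0370), which was 3 of 10 members against 37.4% of all genes. On each day alone, 9 of 10 members were higher in the IP, with Sox21 the exception, against 29.2%, 33% and 34.6% of all genes at days 11, 18 and 27. For Sox4 the ratio of mean TPM, IP over input, was 8.55 at day 11, 14.1 at day 18 and 6.98 at day 27. The IP means for it were 180, 193 and 118 TPM and the input means 21.1, 13.7 and 16.9 TPM. For Sox9 the ratio was 2.29, 3.02 and 1.79 over the same days, and for Sox12 it was 1.54, 2.75 and 2.20. Sox4 and Sox9 thus had their widest gap at day 18 and their smallest at day 27, while Sox12 had its smallest at day 11. For Sox4, Sox9 and Sox12 the input mean was lowest at day 18, at 13.7, 34.8 and 18.4 TPM. Their IP mean was highest on that day, at 193, 105 and 50.6 TPM. The olfactory receptor genes were highest in the input of day 18, and their part in these gaps was not tested. Sox12 was called under every alternative tried. With eBayes without trend and robust, Sox9 and Sox4 lost the call (adjusted p = 0.0689 and 0.0502). Sox9 also lost the call without any 1 of 12 libraries of days 18 and 27 (adjusted p up to 0.102): IP running c, d, e and f, IP sedentary c and f, input running c, e and f, and input sedentary c, e and f. Sox4 also lost it without any 1 of 5 (up to 0.0749): IP running c, IP sedentary c, input running c and input sedentary d of day 18, and input sedentary f of day 27. Sox2 lost its call at day 27 alone without the input sedentary library e of that day (adjusted p = 0.0770), and Sox2 and Sox5 lost theirs at day 27 with median-of-ratios scaling (0.332 and 0.0938). Sox21 was called lower in the IP at day 27 with that scaling (-0.40, adjusted p = 0.0454). At 0.0535, 0.0732 and 0.103, the adjusted p of Sox1, Sox5 and Sox11 missed the threshold. With median-of-ratios scaling these 3 were called too (adjusted p = 0.0207, 0.0343 and 0.0375). Leaving out single libraries gave a call to Sox1 in 6 cases, to Sox2 and Sox5 in 2 each and to Sox11 in 1, the IP running library a of day 11.

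Within the IP, Sox1 and Sox5 fell and Sox12 rose between day 11 and day 27, which was 3 of 10 members against 15.3% of all 17282 genes tested (11.4% higher and 3.88% lower). Sox1 had 42.2, 57.9, 57.8 and 64.9 TPM in the 4 IP libraries of day 11 and 53.1, 51.5, 52.2 and 44.4 TPM at day 18. At day 27 it had 29.3, 33.9, 39.9 and 35.8 TPM, all below the lowest library of day 11, and day 27 against day 11 gave a log2 difference of -0.66 ± 0.12 (adjusted p = 0.00302). Sox5 had 19.4, 23.2, 24.4 and 24.4 TPM at day 11 and 19.7, 21.5, 23.7 and 23.1 TPM at day 18. At day 27 it had 11.7, 15.0, 15.8 and 17.1 TPM, again all below day 11 (-0.59 ± 0.13, adjusted p = 0.00861). Of all genes, 4.8% had all 4 libraries of day 27 below all 4 of day 11. Neither call was lost under any alternative tried. Sox6, the partner of Sox5, was not called (-0.36 ± 0.16, adjusted p = 0.138), and it had 14.3 to 22.3 TPM at day 11, 14.1 to 19.2 TPM at day 18 and 11.4 to 17.6 TPM at day 27.

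Sox12 was the one member called higher at day 18 or day 27 than at day 11. It had 25.3, 36.0, 35.1 and 39.1 TPM at day 11, 46.3, 52.0, 51.6 and 52.6 TPM at day 18, and 43.5, 46.1, 54.8 and 48.5 TPM at day 27. All 8 later libraries lay above all 4 of day 11, as 13.2% of all genes did for day 27 alone. The log2 difference was 0.58 ± 0.12 at day 18 against day 11 (adjusted p = 0.0157), where 5.66% of all genes were called, and 0.51 ± 0.12 at day 27 against day 11 (adjusted p = 0.0122). The call at day 27 was lost without the sedentary library a of day 11 (adjusted p = 0.0666) and without the sedentary library e of day 27 (0.0613). That at day 18 was lost without the sedentary library a of day 11 or either library d of day 18 (0.0565 to 0.0854), and with eBayes without trend and robust (0.0679). With median-of-ratios scaling 465 genes were called higher and 453 lower at day 18 against day 11, against 788 higher and 190 lower as deposited. Without both IP libraries a of day 11, a choice made after seeing the data, the difference was 0.42 at day 18 (adjusted p = 0.152) and 0.35 at day 27 (0.125).

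The other SOXC genes had the opposite sign at day 27 against day 11, and at day 18 against day 11 they were near 0 (0.11 for Sox4 and 0.0048 for Sox11) without a call. Sox4 had 111, 226, 220 and 164 TPM at day 11, 268, 202, 158 and 144 TPM at day 18, and 149, 112, 111 and 101 TPM at day 27. Sox11 had 96.8, 210, 186 and 154 TPM at day 11, 222, 157, 145 and 117 TPM at day 18, and 126, 123, 105 and 99.3 TPM at day 27. For both genes the lowest library of day 11 was running library a, which overlapped with day 27 while the other 3 did not. Day 27 against day 11 gave -0.57 ± 0.20 for Sox4 (adjusted p = 0.0696) and -0.46 ± 0.20 for Sox11 (0.139), neither of them called. Without running library a of day 11 both were called lower at day 27, Sox4 at -0.82 (adjusted p = 0.00746) and Sox11 at -0.74 (0.00829). With median-of-ratios scaling, which moved the median of all genes from 0.15 to 0.02, Sox4 (-0.71, adjusted p = 0.0184), Sox11 (-0.61, 0.0294), Sox2 (-0.40, 0.0102) and Sox6 (-0.50, 0.0216) were called lower beside Sox1 and Sox5, and Sox12 was still called higher. Of all 17282 genes, 1282 were then called higher and 1504 lower, against 1971 higher and 671 lower as deposited. The ratio of Sox12 to Sox11 was 0.219 ± 0.0451 at day 11, 0.336 ± 0.0991 at day 18 and 0.433 ± 0.0843 at day 27 (SD, n = 4 libraries each).

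Of the remaining stem cell types, Sox2 had 47.7 to 66.1 TPM at day 11, 51.1 to 75.1 TPM at day 18 and 42.7 to 57.0 TPM at day 27 (day 27 against day 11, -0.26 ± 0.12, adjusted p = 0.140). Sox9 had 61.1 to 122 TPM, 87.2 to 137 TPM and 71.8 to 100 TPM on the same days (-0.16 ± 0.15, adjusted p = 0.491). Sox3 was at 4.09 to 6.71 TPM at day 11, 8.29 to 9.36 TPM at day 18 and 5.72 to 7.57 TPM at day 27. Its 4 libraries of day 18 lay above all others, and day 18 against day 11 gave 0.57 ± 0.18 without a call (adjusted p = 0.0718; called at 0.69 and 0.0196 without the running library b of day 11). The share of all genes whose day 18 libraries lay above all other IP libraries was not counted. At days 11, 18 and 27 Sox21 had 5.65 to 8.41 TPM, 5.43 to 9.52 TPM and 4.83 to 8.74 TPM. Between day 18 and day 27 an unadjusted p under 0.05 was reached by 7 of the 10 and 2293 of all 17282 genes. None of the 10 was called in limma, against 0.122% of all genes. The smallest adjusted p was that of Sox1 at 0.0818 (-0.53), followed by Sox5 at 0.0947 (-0.54). With median-of-ratios scaling Sox1 was called lower at day 27 (-0.55, adjusted p = 0.0368).

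**Figure D2:**
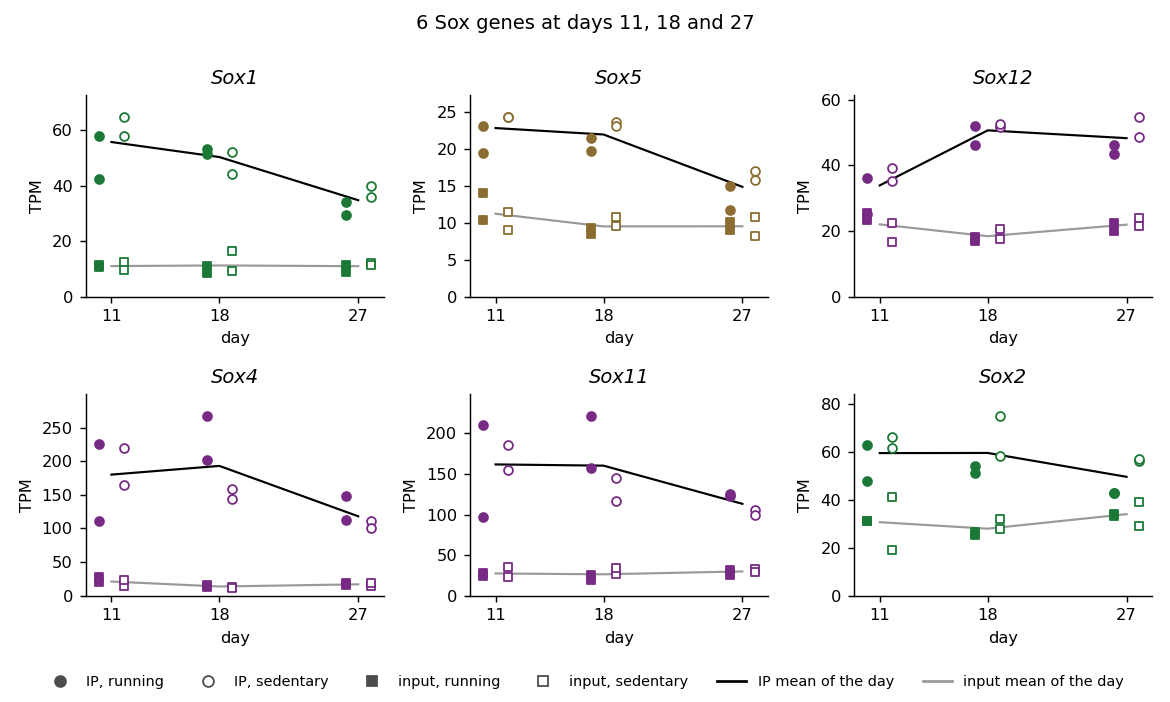
TPM of 6 Sox genes by day in the IP (circles) and the input (squares), with filled symbols for running and open ones for sedentary libraries, 2 of each per day, and lines for the mean of the day. Sox1 and Sox5 are lowest at day 27 in the IP, at means of 34.7 and 14.9 TPM, Sox12 is lowest at day 11 at 33.8 TPM, and the line of the input runs below that of the IP on each day for all 6 genes.

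Genes of the members' networks changed in both directions. Between day 11 and day 27 in the IP, 3 of 14 genes of the SOXB1 and stem cell network fell and 0 rose (median -0.20, against 0.15 for all genes). They were Vim at -0.97, Pax6, a transcription factor gene of stem cells and progenitors, at -0.67 and Fabp7, of radial glia, at -0.69. Of the SOXC and neuronal network, 2 of 14 rose and 4 fell (median -0.27). Bcl11b, a factor of granule neurons, rose by 0.73, whereas Calb2, which marks young granule neurons, fell by 1.22, Stmn1, a tubulin-binding protein gene, fell by 0.83 and Neurod1 fell by 0.62. In the SOXD network Fezf2 fell, to 27.1 ± 3.51 TPM at day 27 against 40.9 ± 5.58 TPM at day 11 (SD, n = 4 libraries each). In the glial network Aqp4 fell by 0.43. All 5 intermediate progenitor markers fell (median -1.04), and their summed level was 113 to 139 TPM at day 27 against 221 to 306 TPM at day 11. Other lists moved as well. The mean sum of the neural stem cell markers was 705 TPM at day 27 against 1004 TPM at day 11. That of the immature neuron markers was 1508 against 2517 TPM, and that of the mature granule neuron markers 3337 against 2216 TPM. The part of these lists in the changes of Sox1 and Sox5 was not tested.

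In the input, day 27 against day 11 gave a call for none of the 10 members (limma, 0 with an unadjusted p under 0.05). Of all 20462 genes 0% were called, and 2917 had an unadjusted p under 0.05. Between day 18 and day 11, 1 of 10 was called, against 49.2% of all genes (7736 higher and 2338 lower, or 7155 higher and 4154 lower with median-of-ratios scaling). Sox4 fell to 13.4, 16.02, 13.6 and 11.7 TPM at day 18, against 19.8, 27.4, 14.2 and 22.8 TPM at day 11 (-0.56 ± 0.17, adjusted p = 0.0181). The sedentary library a of day 11 overlapped with day 18. The call was lost without any 1 of 4 libraries, running b and sedentary b of day 11 and running c and sedentary d of day 18 (adjusted p = 0.0558 to 0.0837). Between day 27 and day 18 none was called in limma, against 37.1% of all genes. Of the members Sox9 alone had an unadjusted p under 0.05, as did 9952 of all 20462 genes. Sox9 was the nearest to a call, at 41.7 to 49.6 TPM at day 27 against 30.4 to 41.1 TPM at day 18 (0.39 ± 0.14, adjusted p = 0.0554), and it was called without the sedentary library d of day 18 (0.45, adjusted p = 0.0481). The olfactory receptor genes, highest in the input of day 18, moved with these contrasts, and their part was not tested.

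Running against sedentary in the IP gave no call for any of the 10 members in limma, with 3 at an unadjusted p under 0.05. Of all 17282 genes, 0.00579% were called, which is 1 gene, and 2453 had an unadjusted p under 0.05. All 5 stem cell types had a lower mean of log2(TPM + 1) in running libraries. Sox3 instead had a higher one with median-of-ratios scaling (0.014) and without running library a of day 11 (0.040). The median difference of all genes was also below 0, at -0.07, further from 0 than that of Sox3 at -0.04. With median-of-ratios scaling this median was -0.006. Among the neuronal types Sox4 and Sox11 had a higher mean, except that Sox11 stood at -0.0027 without running library b of day 11, and Sox12 had a lower one. Sox9 had 61.1 and 95.3 TPM in running and 94.2 and 122 TPM in sedentary libraries at day 11. At day 18 it had 87.2 and 97.6 TPM in running and 137 and 98.6 TPM in sedentary libraries, and at day 27 it had 71.8 and 72.2 TPM in running and 100.3 and 82.0 TPM in sedentary libraries. Both running libraries lay below both sedentary ones at days 18 and 27, and the mean difference over the 3 days was -0.38 ± 0.12 (adjusted p = 0.217). Sox2 had 47.7 and 62.8 TPM in running and 61.6 and 66.1 TPM in sedentary libraries at day 11. At days 18 and 27 it had 51.1, 54.0, 42.8 and 42.7 TPM in running and 75.1, 58.2, 56.1 and 57.0 TPM in sedentary libraries, again with both running libraries below both sedentary ones on each of these days (-0.31 ± 0.10, adjusted p = 0.210). Sox21 averaged 6.01 ± 1.29 TPM in running and 7.92 ± 1.41 TPM in sedentary libraries (SD, n = 6 each), and its difference was -0.35 ± 0.16 (adjusted p = 0.330). Sox1 (-0.15 ± 0.10) and Sox3 (-0.04 ± 0.15) differed by less, at adjusted p-values of 0.518 and 0.922. For Sox3 the running libraries lay below the sedentary ones at day 18 but above them at day 27. How many of all genes had running and sedentary libraries apart on a given day was not counted. The orders of libraries by activity, here and below, are therefore a description.

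Sox4 had 111 and 226 TPM in running and 220 and 164 TPM in sedentary libraries at day 11. At day 18 it had 268 and 202 TPM in running and 158 and 144 TPM in sedentary libraries, and at day 27 it had 149 and 112 TPM in running and 111 and 101 TPM in sedentary libraries. The running libraries lay above the sedentary ones at days 18 and 27 and on both sides of them at day 11, where running library a was the lowest. Over the 3 days the difference was 0.21 ± 0.16 (adjusted p = 0.563), and the test of a difference between days gave an adjusted p of 0.931 (F test in limma, 0.00579% of all genes called). Sox11 followed the same order of libraries, with 222 and 157 TPM in running and 145 and 117 TPM in sedentary libraries at day 18 (difference over the 3 days 0.18 ± 0.16, adjusted p = 0.640). Sox12 averaged 41.5 ± 9.51 TPM in running and 46.9 ± 8.01 TPM in sedentary libraries (-0.19 ± 0.10, adjusted p = 0.392). Sox5 was lower in both running libraries on each of the 3 days, at a mean of 18.4 ± 4.27 TPM in running and 21.4 ± 3.92 TPM in sedentary libraries (SD, n = 6 each), and its difference of -0.22 ± 0.11 was not called (adjusted p = 0.371). Sox6 differed by -0.15 ± 0.13 (adjusted p = 0.638).

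**Figure D3:**
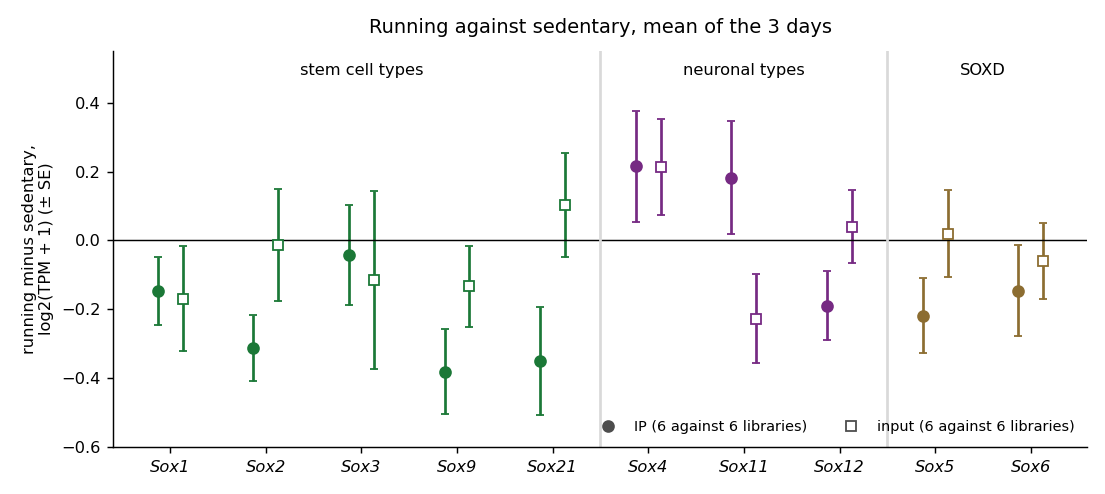
Difference of running minus sedentary libraries on the log2(TPM + 1) scale (points, with SE bars), averaged over the 3 days, for the IP (filled circles) and the input (open squares). In the IP the stem cell types lie between -0.38 and -0.04 and Sox4 and Sox11 at 0.21 and 0.18, and none of the 10 passed the test in either fraction.

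The share of the neuronal types in the summed TPM of the 10 genes combines these differences. In the IP it was 54.5 and 63.3% in running and 62.3 and 53.2% in sedentary libraries at day 11. At day 18 it was 68.6 and 61.8% in running and 52.3 and 54.9% in sedentary libraries, and at day 27 it was 63.9 and 59.8% in running and 52.8 and 53.0% in sedentary libraries. All 4 running libraries of days 18 and 27 lay above all 4 sedentary ones, while at day 11 the activities overlapped. In the input the share was 35.9 to 40.4% in running and 36.1 to 38.6% in sedentary libraries. The sum of the stem cell types averaged 189 ± 33.0 TPM in running and 232 ± 35.5 TPM in sedentary IP libraries, and that of the neuronal types 375 ± 117 TPM in running and 331 ± 69.2 TPM in sedentary ones (SD, n = 6 each). These sums are a description, since no gene of either type was called.

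**Figure D4:**
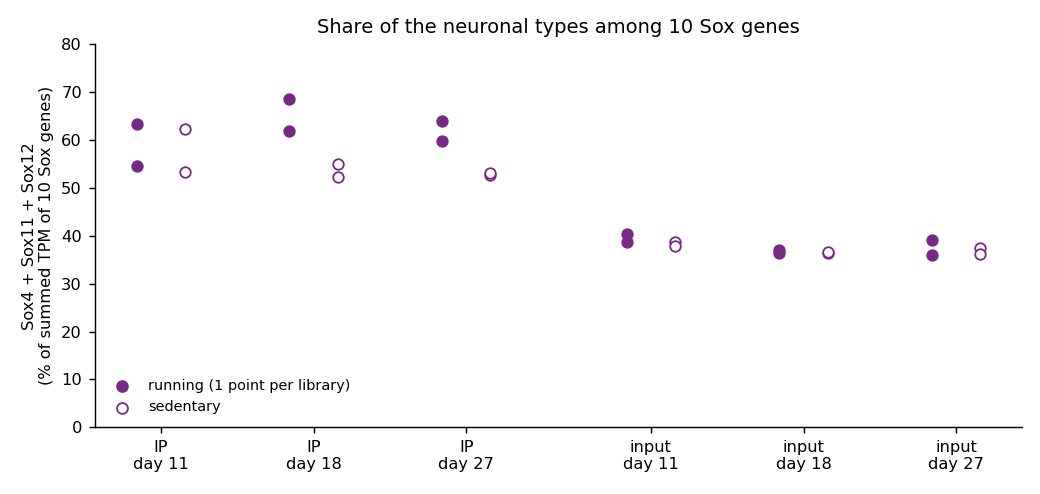
Summed TPM of Sox4, Sox11 and Sox12 as a percentage of the summed TPM of the 10 Sox genes, 1 point per library, by fraction and day, with running (filled) left of sedentary (open). In the IP the running points of days 18 and 27 lie at 59.8 to 68.6% and the sedentary ones at 52.3 to 54.9%.

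No gene of the 4 network lists was called for running in the IP (0 of each list in limma). Of the SOXB1 and stem cell network 2 of 14 genes had a positive difference (median -0.26, against -0.07 for all genes), and of the SOXC and neuronal network 12 of 14 did (median 0.31). Calb2 averaged 362 ± 157 TPM in running and 177 ± 97.6 TPM in sedentary IP libraries (log2 difference 1.01 ± 0.20, adjusted p = 0.142). Hopx averaged 142 ± 22.0 TPM in running and 187 ± 20.1 TPM in sedentary IP libraries (-0.40 ± 0.10, adjusted p = 0.162), and Id4, which holds back differentiation, 130 ± 19.9 TPM and 177 ± 21.5 TPM (-0.44 ± 0.10, adjusted p = 0.145; SD, n = 6 each). The glial network had 3 of 10 positive (median -0.24) and the SOXD network 3 of 8 (median -0.15). Of markers of other cells, none of 6 astrocyte, 6 oligodendrocyte or 6 microglia genes had a positive difference, and no gene of these lists was called in limma. The 6 astrocyte markers summed to 1687 to 2439 TPM in running and 2182 to 3089 TPM in sedentary IP libraries, with none of them at 0, and the 8 stem cell markers to 572 to 1086 TPM in running and 782 to 1113 TPM in sedentary ones. The 6 immature neuron markers summed to 1283 to 3608 TPM in running and 1301 to 2764 TPM in sedentary IP libraries. The part of these levels in the differences of the Sox genes was not tested.

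In the input, running gave no call for any member in limma (0 of 10 with an unadjusted p under 0.05) or for any of 20462 genes (0%, with 858 at an unadjusted p under 0.05). The differences ran from -0.23 ± 0.13 for Sox11 to 0.21 ± 0.14 for Sox4. Sox4 averaged 18.6 ± 4.89 TPM in running and 15.8 ± 4.04 TPM in sedentary input libraries, and Sox11 25.6 ± 4.23 TPM and 30.1 ± 4.52 TPM (SD, n = 6 each). Sox11 and Sox4 thus had opposite signs in the input and the same sign in the IP. The difference of the running effect between the fractions was tested in 1 model over all 24 libraries. It gave no call among the members (limma, 1 with an unadjusted p under 0.05). Of all 19507 genes 0% were called, and 1166 had an unadjusted p under 0.05. Among the members the difference was furthest from 0 for Sox21 (-0.45 ± 0.21) and Sox11 (0.41 ± 0.22), both at an adjusted p of 0.803.

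The likeness of profiles was measured as the root mean square difference of log2(TPM + 1), each gene centred on its own mean. Over the 12 IP libraries the most alike pair of members was Sox4 and Sox11 (0.131), followed by Sox1 and Sox5 (0.137), Sox1 and Sox6 (0.151) and Sox2 and Sox9 (0.152). The least alike was Sox4 and Sox12 (0.552), so the SOXC group held both ends of the scale. Over all 24 libraries and among 11674 genes whose mean was 5 TPM or more, the genes nearest to Sox11 were Mtss1 (0.227), Mex3a (0.248), Mycn (0.258), Kif21b (0.262) and Mcm2 (0.280), and Sox1 stood at 0.281. Mycn, a growth-promoting transcription factor gene, averaged 69.9 ± 14.1 TPM in the IP, against 12.0 ± 1.43 TPM in the input. Nearest to Sox2 were Tra2a (0.187), Ahsa2 (0.188), Mtif2 (0.191), Prex2 (0.193) and Rbmx (0.195). Of the members, Sox5 (0.226) and Sox9 (0.237) were the nearest to Sox2. Libraries share their normalization within a column, so these values describe the profiles and carry no test.

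Because Sox4 and Sox11 had the most alike profiles in the IP, the 250 bases before their RefSeq starts (GRCm38.p6) are shown 5′ to 3′ on the strand of the gene. Capitals mark CCAAT, the core bound by NF-Y, or its reverse complement ATTGG, and CAGCTG, an E-box form bound by proneural factors. Both strands were searched, and none of the marked motifs overlap.
Sox4, chr13:28953700-28953949, minus strand: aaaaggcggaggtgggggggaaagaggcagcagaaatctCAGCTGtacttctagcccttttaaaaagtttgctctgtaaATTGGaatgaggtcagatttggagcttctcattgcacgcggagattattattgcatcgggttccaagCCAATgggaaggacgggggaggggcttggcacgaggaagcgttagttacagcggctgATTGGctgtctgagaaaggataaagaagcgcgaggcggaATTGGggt
Sox11, chr12:27342719-27342968, minus strand: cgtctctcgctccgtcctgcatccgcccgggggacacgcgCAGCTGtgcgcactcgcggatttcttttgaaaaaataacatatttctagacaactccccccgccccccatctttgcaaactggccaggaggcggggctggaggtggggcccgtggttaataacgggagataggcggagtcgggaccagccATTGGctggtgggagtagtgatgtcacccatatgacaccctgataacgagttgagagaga
The Sox4 window held 4 copies of CCAAT in either orientation and 1 CAGCTG, and the Sox11 window held 1 of each. Among 32851 promoters of the same length, 33.9% held CCAAT and 13% held CAGCTG. Windows were found for 8 members, several of them for Sox6, of which 1 also held CAGCTG. The NF-Y core, in either orientation, also stood once each in the windows of Sox1, Sox2 and Sox12. Windows of Sox6 held it in 3 copies and in 1, and those of Sox5 and Sox21 lacked it. The core was therefore not particular to Sox4 and Sox11 among the members. A match is a description of these letters and not a bound site.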

How the data were processed

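The authors deposited TPM values of 23306 genes in 24 libraries, each column summing to 1000000. RSEM and mm10 are named in the submitters' processing notes. For the RSEM version, aligner, gene annotation and strandedness, nothing is stated in the sources used here. The read depth is unknown, so precision rests on the spread between libraries.

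The labels gave 12 groups of 2 libraries. They do not say whether the IP and input libraries of the same activity and letter share a lysate. The main fits treated all libraries as independent. Values of log2(TPM + 1) were fitted in R 4.3.3 with limma 3.58.1 (group means by lmFit, then eBayes, trend and robust on), keeping genes whose mean reached 1 TPM over the fitted libraries. Benjamini-Hochberg adjustment ran over all genes of each contrast, and calls needed an adjusted p under 0.05. IP against input and the contrasts of both fractions were fitted on all 24 libraries, the others on the 12 libraries of a fraction. The fits were tested on simulated data. All tests are two-sided except the F tests, which have no direction.

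The 10 members and all gene lists were chosen with earlier results of these data known. All members are named, and of each network list up to 4 genes of lowest unadjusted p in the comparison. The 5 genes of most alike profile are named for Sox2 and Sox11. Alternatives were another pseudocount (0.1), no filter, median-of-ratios scaling, eBayes without trend and robust, a replicate block, the fit of all libraries, no day 18, and each library left out. Promoter sequences are from RefSeq (GRCm38.p6), where 8 members had an entry. Sequence was handled with Biopython 1.88. Protein sequences were not used here.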

Additional observations from a re-analysis of the deposited data

Results flagged for a closer look

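Of 100 sets of libraries examined for the members (each member within a fraction and an activity or day), 5 had a library far from the others. Chance alone flags about 5% of such sets. Sox3 had 3.29 TPM in the sedentary input library c of day 18, against 0.65 to 1.49 TPM in the other sedentary input libraries. Sox21 had 4.39 TPM in the running input library c of day 18, against 7.19 to 8.42 TPM in the other running input libraries, and Sox6 had 10.81 TPM there, against 7.84 to 8.68 TPM. Sox5 had 14.06 TPM in the running input library b of day 11, against 8.51 to 10.36 TPM in the others. In the IP, Sox12 had 46.25 TPM in the running library c of day 18, against 51.6 to 52.56 TPM in the other libraries of that day. These 3 day 18 input values stand where the olfactory receptor genes were highest.

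The gap between IP and input differed between the 3 days for Sox12 (F test in limma, adjusted p = 0.00572), Sox4 (0.0253) and Sox9 (0.0370), among 37.4% of all genes that did so. Over days 11, 18 and 27 the ratio of mean TPM, IP over input, was 1.54, 2.75 and 2.20 for Sox12, 8.55, 14.1 and 6.98 for Sox4, and 2.29, 3.02 and 1.79 for Sox9. In the input of day 18 the olfactory receptor genes were highest, and their part in these ratios was not tested.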

How the results depend on the processing

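Of 1544 recomputed values of single members, 1466 kept their direction and their side of the threshold, 34 lost a call, 27 gained one and 17 changed sign. For the changes named below the cause was not tested. Running and sedentary libraries of a letter deviated together weakly. Over days 11, 18 and 27, r was 0.20, 0.05 and 0.06 in the IP and 0.27, 0.08 and 0.08 in the input. These values do not settle whether the letters pair the libraries. For IP and input libraries of the same activity and letter, r was -0.28 to -0.0083. With the replicate block the genes called for running in the IP numbered 440, against 1 without it. Sox9 was then called lower in running libraries (-0.38, adjusted p = 0.0452), and 36 genes were called for a difference of the running effect between days, against 1.

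The genes called for running in the IP were 3 with median-of-ratios scaling, 3 with eBayes without trend and robust, 2 without day 18, 8 in the fit of all 24 libraries, 0 without both libraries a of day 11 (chosen after seeing the data), and 1 to 22 with a library left out. In the input they were 1 with eBayes without trend and robust, 1 in the fit of all 24 libraries and 0 to 2 with a library left out, against 0. For running in the IP minus the input they were 0 to 1 with a library left out, against 0. For its difference between days they were 3 without the filter, 3 with eBayes without trend and robust and 1 to 7 with a library left out. For the difference of IP and input between days, 4713 to 7938 were called with a library left out, against 7300.

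Between day 18 and day 11 in the IP, 978 genes were called, against 5 with eBayes without trend and robust, 644 in the fit of all libraries, 0 without both libraries a and 131 to 2679 with a library left out. Between day 27 and day 11, 2642 were called, against 1716, 636 without both libraries a and 1014 to 4185 with a library left out. Between day 27 and day 18, 21 were called, against 5, 37 without both libraries a and 0 to 112. In the input, day 27 against day 18 gave 7592 calls, 3826 with a pseudocount of 0.1 and 1810 to 8187 with a library left out, and day 27 against day 11 gave 0 calls, 322 in the fit of all libraries and 0 to 1380 with a library left out.

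The sign changed for values of Sox21, Sox3 and Sox11. Sox21 in IP against input was -0.23 with median-of-ratios scaling, -0.085 without day 18 and -0.043 to 0.071 with a library left out, and at day 11 it was -0.18 to 0.071. Sox21 at day 27 against day 11 in the IP was -0.24 to 0.0088 with a library left out. For running in the IP, Sox3 was 0.014 with median-of-ratios scaling, 0.012 without both libraries a and -0.13 to 0.040 with a library left out, and Sox11 was -0.0027 to 0.37 with a library left out.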
